A study of Mus musculus with 15 samples.

Results

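The aryl hydrocarbon receptor (AhR) battery was followed through 3 days of differentiation in MC3T3 clone 1b cells, a single clone of an osteoblast precursor line from mouse calvaria (skull bone). It was taken as 7 genes: the receptor Ahr, its partner Arnt, and the enzymes Cyp1a1, Cyp1b1, Nqo1, Aldh3a1 and Fmo1. They were chosen by symbol, as all the probe sets of the arrays whose only gene symbol was one of these, 12 of the 12422 probe sets other than controls, and 7 of 8251 genes. The genes themselves had been selected on log2 intensity differences between treated and GP cultures on these same arrays, so those differences are given as a description. Where limma calls on them are counted, the count reuses the values that chose the genes, and it supports nothing. Total RNA was measured on 15 single-colour oligonucleotide arrays in 5 groups of 3. At day 0 the cells were in control medium. At days 1 and 3, GP cultures had received beta-glycerol phosphate (GP, the phosphate source for mineral). Treated cultures of the same days had received GP, ascorbic acid and the bone-inducing growth factor BMP-2. No transgene or deletion is named in the labels. Ascorbic acid and BMP-2 were present only together and cannot be told apart, nor can the change of medium and the passing of time in the step from day 0 to GP day 1. Each group held preps 1, 2 and 3. The labels do not say that a prep was a culture of its own, so the p-values refer to the spread among these samples, and that spread may be technical.

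AhR is a transcription factor of the bHLH-PAS family that waits in the cytosol bound to the chaperone HSP90. When it binds a ligand such as dioxin, a polycyclic aromatic hydrocarbon or a tryptophan metabolite, it moves to the nucleus, pairs with ARNT and binds the xenobiotic response element, whose core is GCGTG. Its best-known targets oxidise or reduce foreign chemicals, steroids and aldehydes, among them the cytochromes P450 of family 1, NQO1 and ALDH3A1, and dioxin is known to impair bone formation and osteoblast differentiation. NQO1 is also a textbook target of NRF2, which binds the antioxidant response element.

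Promoters of 4 of the 7 genes (Arnt, Cyp1a1, Cyp1b1 and Nqo1) were in the RefSeq table used here (build GRCm38.p6, from 250 bases before to 50 bases after the annotated start), and those of Ahr, Aldh3a1 and Fmo1 were not matched. They are shown because the receptor's own motif can be read in them, and are printed 5′ to 3′ on the strand of the gene. Capitals mark the xenobiotic response element core GCGTG, which reads as CACGC when it lies on the other strand, and the antioxidant response element core TGACNNNGC (GCNNNGTCA on the other strand).
Cyp1a1 promoter, chr9:57697363-57697662, plus strand: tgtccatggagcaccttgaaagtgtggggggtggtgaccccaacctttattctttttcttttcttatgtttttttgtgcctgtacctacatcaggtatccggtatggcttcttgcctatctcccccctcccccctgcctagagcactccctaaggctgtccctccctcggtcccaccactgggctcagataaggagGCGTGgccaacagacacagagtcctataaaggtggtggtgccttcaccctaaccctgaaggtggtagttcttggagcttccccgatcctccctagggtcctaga
Cyp1b1 promoter, chr17:79715012-79715311, minus strand: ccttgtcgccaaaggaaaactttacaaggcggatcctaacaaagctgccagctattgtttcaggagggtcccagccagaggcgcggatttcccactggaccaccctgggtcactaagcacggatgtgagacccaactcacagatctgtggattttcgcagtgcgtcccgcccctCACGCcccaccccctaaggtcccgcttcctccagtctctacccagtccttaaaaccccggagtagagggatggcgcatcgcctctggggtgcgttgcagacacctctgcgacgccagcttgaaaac
Nqo1 promoter, chr8:107403156-107403455, minus strand: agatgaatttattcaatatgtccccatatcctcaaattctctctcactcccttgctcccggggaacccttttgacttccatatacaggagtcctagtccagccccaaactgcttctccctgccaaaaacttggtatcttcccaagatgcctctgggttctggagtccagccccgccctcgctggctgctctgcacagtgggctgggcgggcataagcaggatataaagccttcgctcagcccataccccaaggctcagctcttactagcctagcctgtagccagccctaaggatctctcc
Arnt promoter, chr3:95434140-95434439, plus strand: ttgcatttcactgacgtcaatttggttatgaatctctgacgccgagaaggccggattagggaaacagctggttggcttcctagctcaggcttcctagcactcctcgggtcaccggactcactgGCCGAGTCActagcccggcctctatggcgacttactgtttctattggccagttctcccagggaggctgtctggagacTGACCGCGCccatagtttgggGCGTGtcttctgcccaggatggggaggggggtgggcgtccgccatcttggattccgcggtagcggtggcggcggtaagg
Cyp1a1 held 1 GCGTG, 54 bases before the start. Cyp1b1 held 1 on the other strand, 76 bases before the start. Arnt held 1 GCGTG, 29 bases before the start, and 2 antioxidant cores, while Nqo1 held neither motif within these 300 bases. So short a core is common: GCGTG on either strand was found in 32.4% of 32851 promoter windows of the same length, and TGACNNNGC in 12.4%. A match is a description of the letters and not a binding site, and no match says only that the letters are not in this window.

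All 6 osteoblast precursor markers passed the filter on low mean signal, with Col1a1, a chain of type I collagen, between 6727.4 and 11861.5 intensity units on every array. Alpl, the bone alkaline phosphatase, passed through the treated cultures, with means of 20.2 to 25 in medium and GP, and 109 and 630 in treated cultures at days 1 and 3. It was 1 of 2 markers past the limma threshold at day 3, and the other, the cadherin Cdh11, was lower, with means of 378 in GP and 160 in treated cultures. At day 1 Alpl passed only with the prep as a block (limma, adjusted p = 0.0212, and 0.0519 without it). Markers of liver cells, where this battery is best known, were near background: 0 of 5 passed, and their summed signal lay between 24.3 and 86.6. Adipocyte and endothelial markers passed in 0 of 3 and 0 of 4 cases, macrophage markers in 2 of 5 (Cd14 and Csf1r, with the pan-leukocyte gene Ptprc at 0.4 to 13.3), and epithelial markers in 1 of 5 (Cdh1). The prep 3 arrays stood apart, with 12.6% ± 0.85 (SD, n = 5) of their probe sets at or under the floor of 2.8 units, against 8.70% ± 0.735 for prep 1 and 7.73% ± 0.695 for prep 2. The 3′ to 5′ signal ratio of actin, a sign of RNA quality, was 2.11 on the GP day 3 array of prep 3 and 1.00 to 1.34 on the others.

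Of the 12 probe sets, 7 had a mean signal of at least 22.3 units and were tested, and they stood for 6 of the 7 genes. Cyp1a1, the classical sentinel of AhR activity, was the gene left out. Its first probe set (161831_at) lay between 4.9 and 35.9 units and its second (94715_at) between 2.6 and 23.0 over the 15 arrays. For neither did any group stand clear of the next in the order of means. The other 3 under the filter were second probe sets: Arnt (97185_at) at 4.6 to 27.0, Aldh3a1 (162331_f_at) at 4.8 to 12.5 and Cyp1b1 (161368_r_at) at 0.1 to 2.4, which was under the floor on all 15 arrays. They therefore say nothing for or against the better-measured probe sets of the same genes. The member nearest the filter on the inside was Fmo1, with a geometric mean of 26.2, and the nearest on the outside was Cyp1a1 (161831_at) at 14.9.

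**Figure D1:**
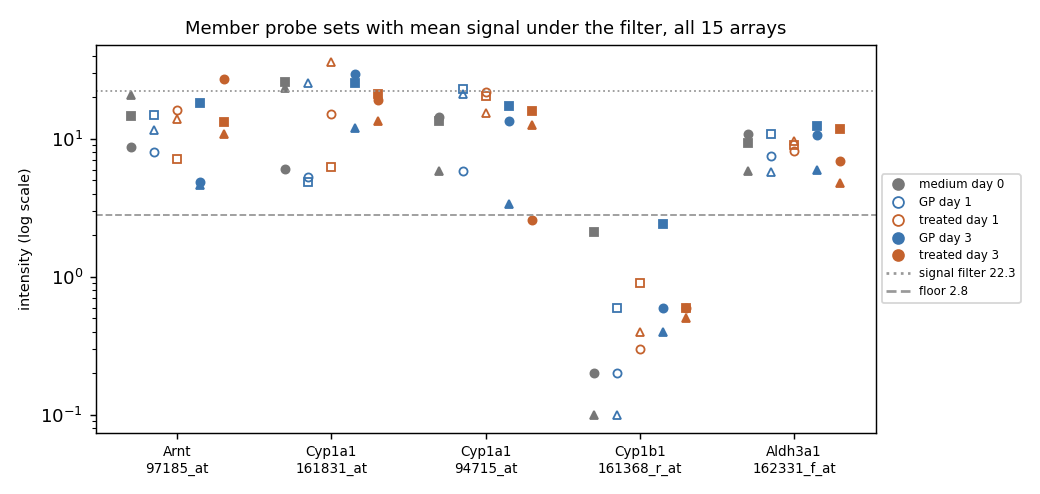
Signal of the member probe sets left out for low intensity, 1 point per array, by group. The axis is linear intensity on a log scale, colour and fill give the group and the shape the prep, the dotted line is the filter at 22.3 units and the dashed line the floor at 2.8; most points lie under the filter, and each group overlaps the next in the order of means.

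Ahr, the receptor itself, was low in treated cultures at day 1 and not at day 3. In medium at day 0 its signal was 79.7, 89.0 and 129.5 in preps 1, 2 and 3, and in GP at day 1 it was 70.5, 89.2 and 155.6. In treated cultures at day 1 it was 47.4, 57.2 and 48.0 (mean 50.9 ± 5.49, SD, n = 3). These 3 arrays lay below the other 12, with no overlap. At day 3 the signal was 87.0, 125.0 and 215.6 in GP and 176.6, 153.5 and 182.2 in treated cultures, which overlapped. In medium and in both GP groups prep 1 was the lowest and prep 3 the highest, an order that the treated arrays did not keep.

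On the log2 scale the treated minus GP difference of Ahr was -0.97 ± 0.33 (SE) at day 1, with -0.57, -0.64 and -1.70 within preps 1, 2 and 3. At day 3 it was 0.36 ± 0.33, with 1.02, 0.30 and -0.24 within the preps, so that the sign was not shared. The 95% interval at day 3, -0.35 to 1.06, does not show that the levels were alike. The day 3 difference minus the day 1 difference was 1.33 ± 0.46.

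Arnt, the obligate partner of AhR and of the hypoxia factors, gave no such pattern. Its tested probe set (92529_s_at) read 90.3, 102.4 and 96.0 in medium, 81.7, 87.3 and 70.8 in GP at day 1, and 102.2, 84.3 and 58.3 in treated cultures at day 1. At day 3 it read 84.9, 86.3 and 33.9 in GP and 83.8, 108.2 and 49.7 in treated cultures. Treated and GP arrays overlapped on both days, and in all 4 groups after day 0 the lowest array was that of prep 3. The treated minus GP difference was 0.00 ± 0.36 at day 1 (95% interval -0.77 to 0.76) and 0.29 ± 0.36 at day 3 (-0.48 to 1.05), intervals that leave room for a change in either direction. The day 3 value turned to -0.16 without the GP day 3 array of prep 3, the one with the high actin ratio. In bulk RNA, fewer cells that express a gene and less of its RNA per cell cannot be told apart, for these genes and those below.

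**Figure D2:**
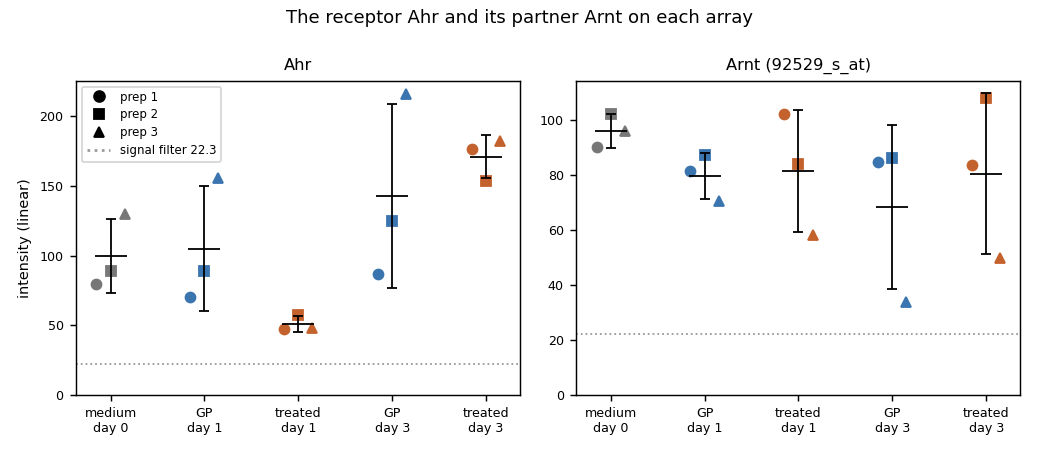
Signal of Ahr and Arnt on each of the 15 arrays, in linear intensity, with the prep as the symbol, the group mean as a bar and the SD as the error bar (n = 3). The 3 treated arrays at day 1 lie between 47.4 and 57.2 for Ahr, under all others, while the Arnt groups overlap.

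Cyp1b1 is the family 1 cytochrome of mesenchymal and steroid-responsive tissues, which oxidises oestradiol, retinoids and polycyclic hydrocarbons. It was well above the filter on every array and stepped down through the 5 groups. It read 843.7, 969.3 and 1041.8 in medium, 761.7, 676.0 and 558.9 in GP at day 1, and 488.6, 499.3 and 503.8 in GP at day 3. In treated cultures it read 467.5, 485.9 and 355.7 at day 1 and 296.6, 179.7 and 133.8 at day 3. The group means ran 952 ± 100, 666 ± 102, 497 ± 7.81, 436 ± 70.5 and 203 ± 83.9 (SD, n = 3 each), in the order medium, GP day 1, GP day 3, treated day 1 and treated day 3. No neighbours in that order overlapped, although the lowest GP day 3 array (488.6) and the highest treated day 1 array (485.9) nearly met.

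The treated minus GP difference of Cyp1b1 was -0.61 ± 0.23 at day 1, with -0.70, -0.48 and -0.65 within the preps. At day 3 it was -1.37 ± 0.23, with -0.72, -1.47 and -1.91. All 6 within-prep differences were negative. The mean in treated cultures at day 3 was the lowest of any group, and Cyp1b1 was lower in GP at day 3 than in medium in all 3 preps without any ascorbic acid or BMP-2.

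Nqo1, the quinone reductase that removes quinones by a single 2-electron step, was low in treated cultures at day 3, while at day 1 treated and GP arrays overlapped. The brighter probe set (94351_r_at) read 88.3, 69.3 and 123.2 in medium, 145.9, 166.3 and 112.6 in GP at day 1, and 158.7, 197.6 and 91.2 in treated cultures at day 1. At day 3 it read 100.7, 144.0 and 92.0 in GP and 41.6, 38.6 and 38.0 in treated cultures (mean 39.4 ± 1.93, SD, n = 3). The treated day 3 arrays lay under the other 12 and close together, and no other neighbouring groups were apart. The second probe set (94350_f_at) gave treated day 3 values of 38.9, 36.0 and 27.5, against 66.3, 77.9 and 32.6 in GP at day 3, and those overlapped through the GP array of prep 3.

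The treated minus GP difference of the brighter Nqo1 probe set was 0.02 ± 0.29 at day 1, with 0.12, 0.25 and -0.30 within the preps, and -1.48 ± 0.29 at day 3, with -1.28, -1.90 and -1.28. For the second probe set it was 0.35 ± 0.33 and -0.71 ± 0.33. Both probe sets were negative at day 3 in all 3 preps and differed in size. The manufacturer's suffixes of these probe sets stand for relaxed probe rules and for a family of similar sequences, and signal from another transcript was not excluded. The day 1 value of the brighter probe set ran from -0.22 to 0.34 with single arrays or preps left out. The day 3 value of the second probe set ran from -1.09 to -0.46 in the same way. Its GP day 3 array of prep 3, at 32.6, is the array with the high actin ratio.

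Aldh3a1, a dehydrogenase of aromatic and lipid aldehydes, was low in treated cultures on both days. It read 111.6, 149.5 and 137.3 in medium, 86.8, 156.8 and 97.3 in GP at day 1, and 129.3, 191.3 and 193.0 in GP at day 3. In treated cultures it read 66.4, 40.8 and 56.9 at day 1 and 46.7, 48.6 and 57.9 at day 3. The 6 treated arrays lay under the 9 others without overlap. The treated means, 54.7 ± 12.9 and 51.1 ± 5.99 (SD, n = 3), did not differ beyond their spread, whereas the GP mean was 114 ± 37.8 at day 1 and 171 ± 36.3 at day 3. The treated minus GP difference was -1.03 ± 0.26 at day 1, with -0.39, -1.94 and -0.77 within the preps, and -1.73 ± 0.26 at day 3, with -1.47, -1.98 and -1.74.

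Fmo1, a flavin-containing monooxygenase that oxidises the nitrogen and sulphur of drugs and amines, had the largest treated minus GP differences of the tested members, at the lowest signal. It is not among the best-known AhR targets named above. It read 30.2, 19.2 and 53.8 in medium, 41.1, 33.9 and 50 in GP at day 1, and 110.7, 35.0 and 75.5 in GP at day 3. In treated cultures it read 12.1, 18.7 and 9.8 at day 1 and 12.3, 7.7 and 14.4 at day 3. All 6 treated arrays were under the filter value of 22.3, and under all 9 others, the closest being 18.7 (treated, day 1) and 19.2 (medium), so that Fmo1 was tested because of the cultures in which it was high. The difference was -1.66 ± 0.48 at day 1, with -1.76, -0.86 and -2.35 within the preps, and -2.58 ± 0.48 at day 3, with -3.17, -2.18 and -2.39. With values under 45.6 units (the median of all values) set to that floor, the day 3 difference was -0.67. The treated arrays then carried no more than the floor, and neither did the GP day 3 array of prep 2 (35.0).

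**Figure D3:**
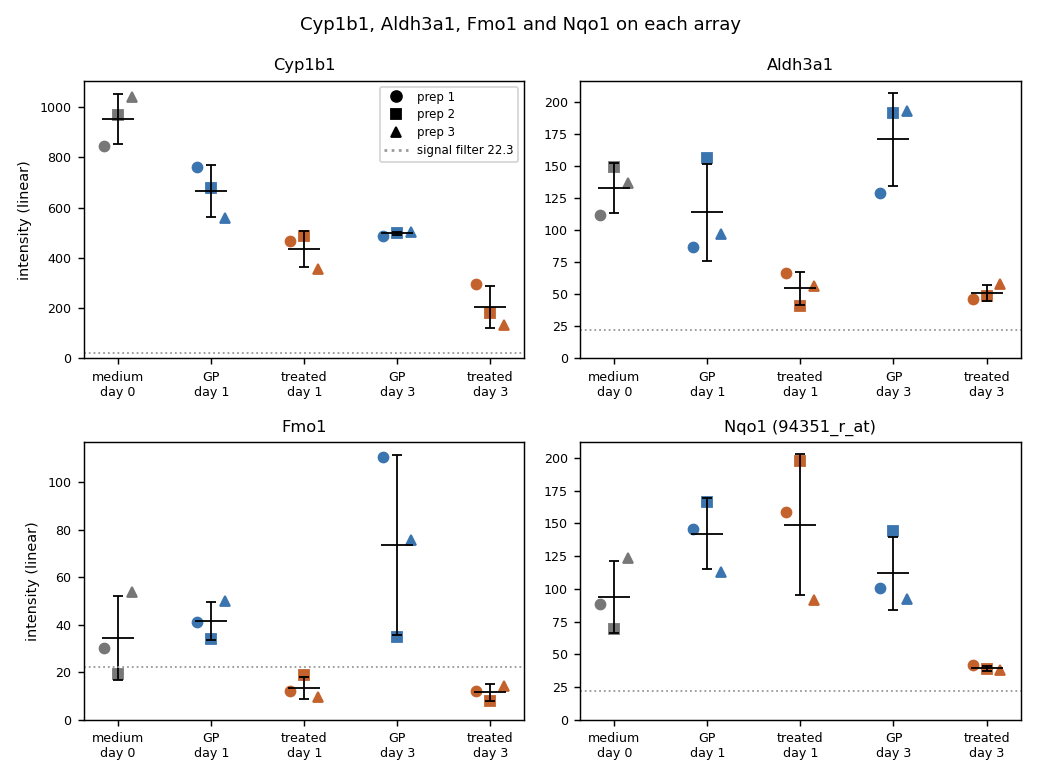
Signal of Cyp1b1, Aldh3a1, Fmo1 and the brighter Nqo1 probe set on each array, in linear intensity, with the prep as the symbol, the group mean as a bar and the SD as the error bar (n = 3). The treated day 3 arrays are the lowest for Cyp1b1 (133.8 to 296.6) and Nqo1 (38.0 to 41.6), and all 6 treated arrays are the lowest for Aldh3a1 and Fmo1.

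At day 1, 4 of the 6 tested genes (Ahr, Cyp1b1, Aldh3a1 and Fmo1) had all 3 treated arrays under all 3 GP arrays, as did 8.63% of all 7453 tested probe sets. None of the 6 passed an adjusted p of 0.05 in limma, a linear model across all probe sets, where 0.926% of probe sets passed. With the prep as a block, 3 genes (Ahr, Aldh3a1 and Fmo1) passed as lower, against 2.92% of probe sets. At day 3 the genes without overlap were Cyp1b1, Nqo1, Aldh3a1 and Fmo1, 4 of 6, against 9.58% of probe sets, and the same 4 passed limma as lower, against 2.08%, or 6.99% with the prep as a block. Fmo1 is among these 4 and entered the test through the cultures where it was high. Because these comparisons chose the members, the counts are no test of them, and nothing is read from them against the shares of all probe sets. The median member difference was -0.79 at day 1 and -1.43 at day 3, beside 0 over 5643 genes on both days. These medians, Fmo1 included, also come from the differences that chose the genes, and nothing is read from their distance to 0.

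The day 3 count rested on few arrays. It was 1 (Cyp1b1) without prep 1 and 0 without prep 2, and stayed at 4 without prep 3, while at day 1 it was 0 without any of the preps in turn. Without the GP day 3 array of prep 1, Fmo1 (-2.21) was no longer past the threshold, and without that of prep 2, Nqo1 (-1.29) was not. Fmo1 was also not past it with the floor at 45.6 units, and neither Fmo1 nor Cyp1b1 was in a fit of only the compared groups. The difference between days was not past the threshold for any member. For this interaction limma called 0 of 7453 probe sets (0%), also with the prep as a block, and 270 had an unadjusted p under 0.05. Its values were -1.51 ± 0.41 for the brighter Nqo1 probe set, -1.06 ± 0.47 for the second, -0.92 ± 0.68 for Fmo1, -0.76 ± 0.33 for Cyp1b1 and -0.69 ± 0.37 for Aldh3a1.

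**Figure D4:**
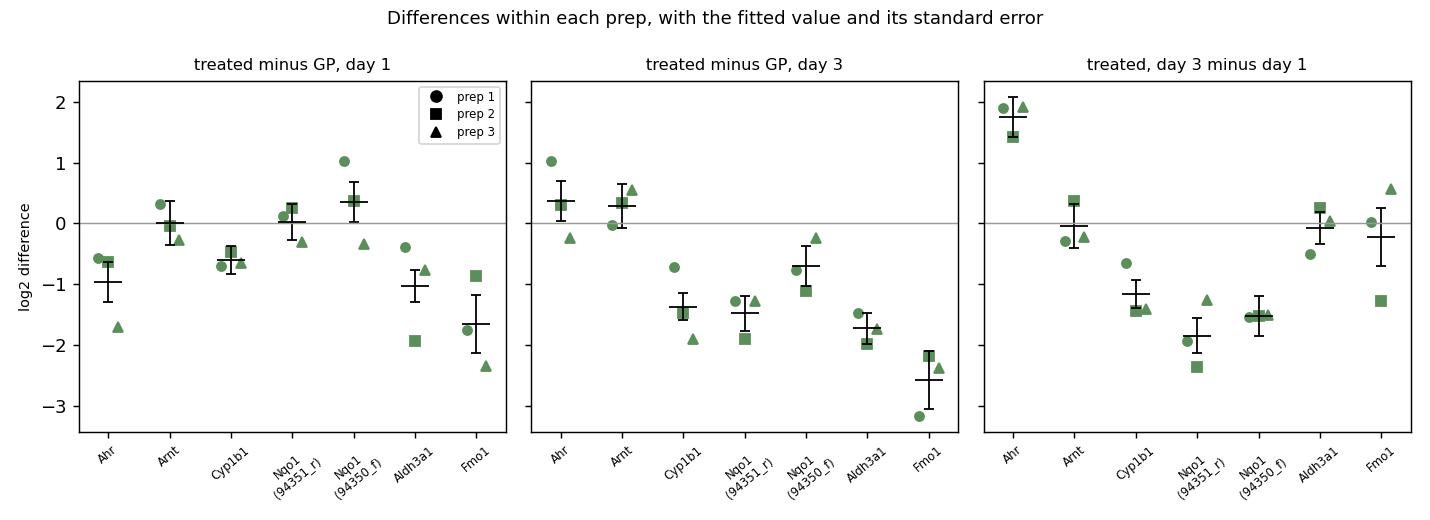
Log2 differences of the 7 tested member probe sets for treated minus GP at day 1, the same at day 3, and treated day 3 minus day 1. Symbols are the differences within preps 1, 2 and 3, the bar is the fitted value and the error bar its SE; treated minus GP at day 3 runs from -2.58 for Fmo1 to 0.36 for Ahr.

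Comparisons over time within a medium were tested, but they share arrays with the treated minus GP comparisons that chose the genes. Their p-values and calls, here and below, are therefore not free of that choice and are given as a description. From day 1 to day 3 in treated cultures, Nqo1 fell by 1.85 ± 0.29 on the log2 scale (limma, adjusted p = 0.0205), with -1.93, -2.36 and -1.26 within the preps. It was the only one of the 6 genes past the threshold, where 0.148% of probe sets passed in either direction. The second Nqo1 probe set gave -1.53 ± 0.33 (limma, adjusted p = 0.0832; 0.0198 with the prep as a block), with -1.54, -1.53 and -1.51 within the preps. The call on Nqo1 was lost without the treated array of day 1 prep 1 or prep 2, or of day 3 prep 2 or prep 3 (limma, adjusted p = 0.104, 0.102, 0.144 and 0.0858), and with all arrays of prep 1 or of prep 2 left out (limma, adjusted p = 0.522 and 0.898).

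The receptor went the other way over the same days. Ahr was higher in treated cultures at day 3 than at day 1 by 1.75 ± 0.33 (limma, adjusted p = 0.0551; 0.0016 with the prep as a block), with 1.90, 1.42 and 1.92 within the preps. Cyp1b1 had a difference of -1.17 ± 0.23 (limma, adjusted p = 0.0699; 0.00661 with the prep as a block), with -0.66, -1.44 and -1.41. So 3 of the 6 genes passed with the prep as a block, where 3.84% of probe sets did. Without the treated day 3 array of prep 1, Cyp1b1 also passed without the block, at -1.48 (limma, adjusted p = 0.00913), and without prep 3 Ahr did (limma, adjusted p = 0.0165). Fmo1 (-0.23 ± 0.48), Aldh3a1 (-0.08 ± 0.26) and Arnt (-0.05 ± 0.36) did not pass in either fit.

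In cultures without ascorbic acid and BMP-2, 0 of the 6 genes passed in limma either from medium at day 0 to GP at day 1, where 0.242% of probe sets passed, or from GP day 1 to GP day 3, where 0.711% did. With the prep as a block the members' count was also 0 at both steps, against 0.725% and 1.85%. At an unadjusted p under 0.05 there was 1 gene at each step, Cyp1b1 and then Aldh3a1. Cyp1b1 had differences of -0.52 ± 0.23 (limma, adjusted p = 1) and -0.41 ± 0.23 (limma, adjusted p = 0.901), negative in 3 of 3 preps at both steps. From GP day 1 to day 3, Fmo1 had 0.69 ± 0.48 (limma, adjusted p = 0.972), Aldh3a1 0.62 ± 0.26 (limma, adjusted p = 0.702) and Ahr 0.42 ± 0.33 (limma, adjusted p = 0.978), each positive in 3 of 3 preps. The brighter Nqo1 probe set had 0.62 ± 0.29 (limma, adjusted p = 1) from medium to GP at day 1, positive in 2 of 3 preps.

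Other genes of the pathway numbered 52 on the array in 7 lists, and those under the filter were not tested. The tested ones gave 1 call between treated and GP cultures, in limma without the block. It came at day 3, where 4.11% of all probe sets passed in either direction, against 0.926% at day 1. Nothing about the lists is read from 1 call. The lists were chosen with earlier results of these data known, and their genes are named by smallest p. Their p-values, here and below, are therefore a description. Hsp90aa1, the chaperone, was the only one of its list on the array (-0.23 ± 0.17 at day 1 and -0.24 ± 0.17 at day 3). Among 4 tested repressors and coactivators, 0 passed on either day (1 and 0 at an unadjusted p under 0.05), with medians of -0.21 and 0.16. Tiparp, which ADP-ribosylates AhR and is itself induced by it, had a mean of 193 ± 14.0 in GP and 69.2 ± 32.5 in treated cultures at day 1 (SD, n = 3). That was a difference of -1.58 ± 0.39 (limma, adjusted p = 0.0736; 0.0112 with the prep as a block), against 0.25 ± 0.39 at day 3. Ahrr, the AhR repressor, was under the filter, with group means from 4.63 to 11.7. Of 4 tested bHLH-PAS relatives 0 passed (1 and 0 at an unadjusted p under 0.05), with medians of -0.03 and 0.19. The clock gene Clock was at 58.2 ± 12.5 in GP and 119 ± 14.5 in treated cultures at day 1, a difference of 1.04 ± 0.24 (limma, adjusted p = 0.0579; 0.00732 with the prep as a block).

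Of the list of classical AhR targets outside the battery only Xdh, xanthine dehydrogenase, was tested, at -0.67 ± 0.75 and -0.74 ± 0.75 (limma, adjusted p = 0.884 and 0.705, and 0.0536 and 0.016 with the prep as a block). Cyp1a2, Gsta1, Gsta2 and Serpinb2 were under the filter like Cyp1a1 and were not tested. Serpinb2 had higher means in treated cultures, 29.8 ± 23.5 against 14.9 ± 4.5 in GP at day 1 (SD, n = 3). At day 3 its means were 41.3 ± 35.1 and 8.97 ± 5.12, and on both days its treated and GP arrays overlapped. For Cyp1a2, Gsta1 and Gsta2 the treated mean was above GP on 1 day and below it on the other. Among 4 electron donors of the microsomal oxygenases 1 passed at day 3, as lower: Cyb5a, cytochrome b5, at 1150 ± 64.8 in GP and 770 ± 87.5 in treated cultures, a difference of -0.59 ± 0.14 (limma, adjusted p = 0.0289). The medians of that list were -0.18 and -0.38. All 5 tested relatives of the member enzymes had negative differences on both days (medians -0.14 and -0.45), with 0 past the threshold and 1 and 4 at an unadjusted p under 0.05. With the prep as a block 1 of them passed as lower at day 1 and 3 at day 3, where 2.92% and 6.99% of all probe sets did, among them Aldh2 on both days, the mitochondrial aldehyde dehydrogenase (-0.54 ± 0.13 and -0.45 ± 0.13).

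Of 13 tested genes of NRF2 and its targets, the other regulator that drives Nqo1, 0 passed on either day (2 and 1 at an unadjusted p under 0.05), and the medians were -0.11 and -0.06. Nfe2l2, which encodes NRF2, had -0.39 ± 0.26 and -0.12 ± 0.26. With the prep as a block Gclm, a subunit of the glutathione-making ligase, passed as higher at day 1 (0.73 ± 0.20 without the block; limma, adjusted p = 0.111, and 0.0429 with it) and Gstm1, a glutathione transferase, as lower (-0.91 ± 0.24; limma, adjusted p = 0.0973 and 0.00323), and Hmox1, haem oxygenase, passed as lower at day 3 (-0.49 ± 0.33; limma, adjusted p = 0.528 and 0.0116). At day 3, 8 of the 13 had differences below 0, Hmox1 the lowest, and 5 above 0, Gclm the highest (0.49 ± 0.20).

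**Figure D5:**
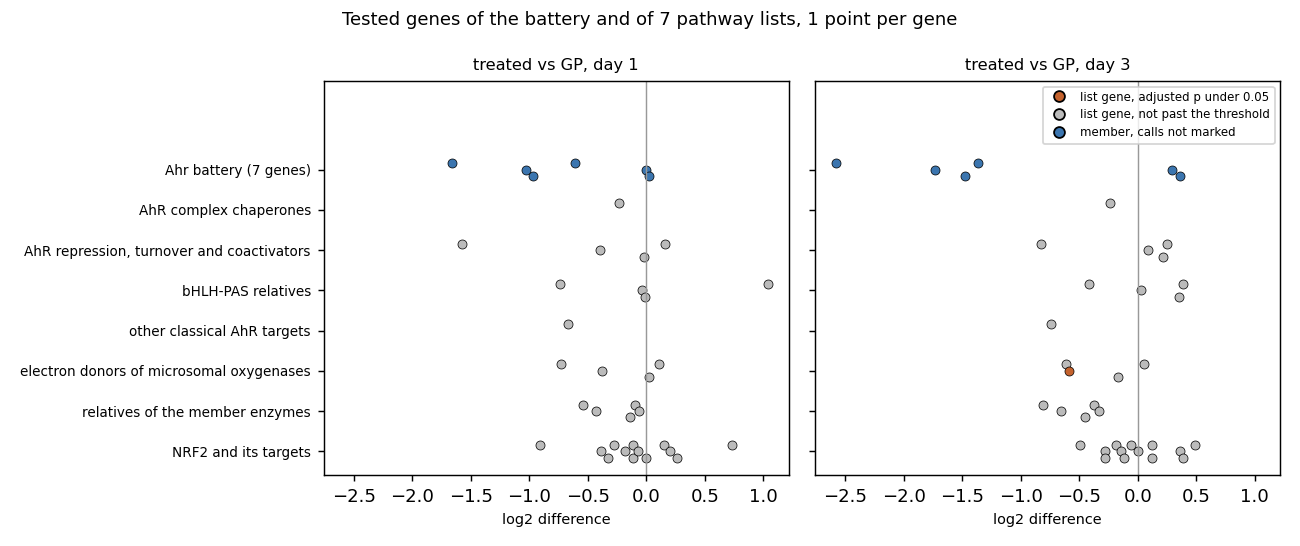
Log2 difference between treated and GP cultures for each tested gene of the battery and of 7 lists of related genes, 1 point per gene, at day 1 and day 3. Member genes have a colour of their own, with no calls marked, and at day 3 4 of them lie between -2.58 and -1.37; of the genes of the lists, only Cyb5a at day 3 is marked as past the adjusted p of 0.05.

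For the tested member probe sets whose group means spanned at least 1 log2 unit, which left out Arnt, the genes whose values ran most like them over the 15 arrays were found by the root mean square difference of log2 values after centring each probe set on its mean, a description with no test. The 4 nearest to Ahr were Ptpn13 (0.29), Matn4 (0.37), Otulinl (0.37) and Ephx1 (0.39), with a median of 0.78 over the tested probe sets. Nearest to Cyp1b1 were Fbln2 (0.36), Mcam (0.36), Thy1 (0.37) and Cd34 (0.39), against 0.88. Of these, Fbln2 encodes a protein of the extracellular matrix and the others cell surface proteins. Fmo1 was nearest to Txnip (0.52), Nid2 (0.53), Col4a1 (0.57) and Pmp22 (0.61), against 1.16, and Aldh3a1 to Bid (0.27), Cpq (0.35), Psmb8 (0.36) and Tmed4 (0.36), against 0.82. The brighter Nqo1 probe set was nearest to Ccl22 (0.47), Tubb2a (0.49), Fbln2 (0.49) and Il17ra (0.50), against 0.82. Its second probe set was nearest to Gatm (0.36), Il17ra (0.36), Aoc1 (0.41) and Eda (0.43), against 0.70, so that the probe sets of Nqo1 shared 1 of their 4 neighbours.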

How the data were processed

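Per the labels, RNA of each sample went to 1 single-colour array. The authors deposited linear intensity values for 12488 probe sets per array. Their software is not given in the sources used here. Each array's mean between its 2nd and 98th percentiles was 150.1, so the arrays shared a scale. Control probe sets (66) were left out, values under 2.8 (the 10th percentile) were set to 2.8, log2 was taken, and probe sets with a geometric mean under 22.3 (the 40th percentile of probe set means) were left out, which left 7453. All 15 arrays entered a single fit with limma 3.58.1 in R 4.3.3 (trend, 10 residual degrees of freedom), with Benjamini-Hochberg adjustment. Array number limits the precision. The fit was tested on simulated data of treated against GP at day 3 on 7453 probe sets, where 44% of changes of 1 log2 unit and 90% of 2 were found. In that run 7 unchanged probe sets were also called. The simulated noise was independent between arrays, without the shared deviations of the preps, so these shares need not hold for the real data.

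Same-numbered preps deviated together (correlation 0.19 to 0.703 in 30 pairs, all over 0.1), so the numbers pair the samples. The pairing comes from the prep numbers in the labels. The main fit left this pairing out, so each SE, interval and limma call is unpaired unless the block is named. For Ahr, treated minus GP at day 1, the SE was 0.33 without the block and 0.24 with it. The block is given where it changed the call of a member. All member probe sets were named, with list genes by smallest p. For a gene with several probe sets the brightest stood for it. Names came from the platform annotation (10833 probe sets with 1 symbol, 396 with several, 1193 with none). The members and lists were chosen with earlier results of these data known. Alternatives were other floors, filters, scalings, fits and left-out arrays.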

Additional observations from a re-analysis of the deposited data

How the results depend on the processing

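The number of probe sets past the threshold moved more than the members' differences did. With the replicate block it was 54 from medium to GP day 1 (18 without), 138 from GP day 1 to day 3 (53), 286 from treated day 1 to day 3 (11), 372 for treated against GP at day 1 (69), 1031 at day 3 (306) and 0 for the interaction (0). With the block, 3 member genes were past it for treated against GP at day 1 (0 without) and 3 from treated day 1 to day 3 (1), and the block changed no other count of members. With only the compared groups the counts were 0, 17, 0, 4 and 69 in the same order, and the members 2 at day 3 (4) and 0 from treated day 1 to day 3. Median scaling gave 2, 24 and 160 from medium to GP day 1, from GP day 1 to day 3 and for treated against GP at day 3, and split the calls from treated day 1 to day 3 as 4 higher and 4 lower (7 and 4 before). Without the mean trend, 11 and 42 were past it from medium to GP day 1 and for treated against GP at day 1. With the floor at the 50th percentile, 18 passed from treated day 1 to day 3, with 0 members, and 3 for the interaction. With the filter at the 60th percentile, 18 passed from treated day 1 to day 3, with 2 members.

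Without 1 prep or 1 array, probe set counts ran from 0 to 18, 0 to 95, 0 to 95, 0 to 119 and 2 to 503 in the same order, and 0 to 1 for the interaction. The highest of the first 5 came without prep 3 and the lowest without prep 1 or prep 2. From treated day 1 to day 3 the count was also 0 without single treated arrays, among them that of day 3 prep 3. Members ran from 0 to 4 for treated against GP at day 3 and from 0 to 3 from treated day 1 to day 3. Of 780 single member values under an alternative, 717 kept direction and call, 20 lost the call, 11 gained one and 32 changed sign. The 717 include values with no call in the main fit that stayed without one, so they do not measure how stable the calls were. All 20 lost calls fell on the few differences called in the main fit. These were Cyp1b1, the brighter Nqo1 probe set, Aldh3a1 and Fmo1 for treated against GP at day 3, and that Nqo1 probe set from treated day 1 to day 3. The largest difference to change sign was that of the second Nqo1 probe set from GP day 1 to day 3. It was -0.46 ± 0.33 and turned to 0.11 without prep 3. Arnt, treated against GP at day 1 (0.00), was 0.03 after quantile normalization and 0.04 after median scaling. With the floor at the 50th percentile, Fmo1 was -0.04 from medium to GP day 1 and 0 from treated day 1 to day 3.

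With arrays left out, Ahr ran from -0.29 to 0.28 from medium to GP day 1. From treated day 1 to day 3, Aldh3a1 ran from -0.27 to 0.14, Arnt from -0.30 to 0.26 and Fmo1 from -0.63 to 0.29. From GP day 1 to day 3, Arnt ran from -0.57 to 0.10 and the second Nqo1 probe set from -0.82 to 0.11. For treated against GP, Arnt ran from -0.18 to 0.22 at day 1 and from -0.16 to 0.60 at day 3, and from -0.16 to 0.60 for the interaction, and the brighter Nqo1 probe set from -0.22 to 0.34 at day 1. The causes of these shifts were not tested. Low signal limits Fmo1 and Cyp1a1 most.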
